A study of Mus musculus with 6 samples.

Results

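Endoplasmic reticulum (ER) stress and folding genes were compared between the hearts of old and young mice. The set holds 33 genes chosen by name from the count table, which lists 18005 genes: chaperones and folding enzymes of the ER, the sensors and effectors of the unfolded protein response, and genes of ER-associated degradation. All 33 had enough counts to be tested, among 12893 genes tested. The study profiled mRNA from hearts of 3 old and 3 young mice, in the context of pathological cardiac hypertrophy in ageing. Both groups are labelled wild type (no engineered allele) and untreated, and the labels give no age, strain or sex. The mice are numbered 1 to 3 in each group, and nothing says whether animals were handled in shared batches. The p-values set the difference between the groups against the spread between the 3 samples within each group. Both the difference and the spread may be partly technical.

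The ER is where secreted and membrane proteins fold. When unfolded proteins build up there, the chaperone BiP (Hspa5) leaves the sensors ATF6, IRE1 (Ern1) and PERK (Eif2ak3). Freed ATF6 is cut to a transcription factor and IRE1 splices Xbp1 mRNA, and both products raise chaperone and degradation genes. PERK phosphorylates eIF2 alpha, which lowers protein synthesis but favours translation of ATF4, which in turn raises Ddit3 (CHOP), Trib3 and Ppp1r15a (GADD34). Other eIF2 alpha kinases, which sense amino acid shortage, heme or viral RNA, also feed into ATF4. In cardiomyocytes the sarcoplasmic reticulum, a form of ER, stores the calcium used for contraction. Gene counts show neither Xbp1 splicing nor ATF6 cleavage, eIF2 alpha phosphorylation or protein level.

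Old hearts had more mRNA of 4 genes around ATF4, while none of the 15 ER chaperones and folding enzymes passed the test. In the edgeR quasi-likelihood test with Benjamini-Hochberg adjustment over all genes, 4 of the 33 genes were higher in old hearts: Atf4, Ddit3, Ppp1r15a and Ppp1r15b. Sel1l was lower and the other 28 were not called, at an adjusted p under 0.05. Over all genes 22.0% were called, 11.4% as higher and 10.6% as lower; the 33 genes had 15.2% called, 12.1% as higher and 3.03% as lower. All 4 higher genes belong to the 6 genes of the PERK-ATF4 branch, and among the other 27 genes 0 were higher (1, Edem1, at an unadjusted p under 0.05; 0 by DESeq2) and 1 was lower. By DESeq2, 2 of the 33 were higher (Atf4 and Ddit3) and 1 lower, and without a correction for multiple tests 5 were higher and 6 lower at p under 0.05. Without young heart 1 or young heart 3, 2 were higher; 0 were lower without old heart 1, young heart 1 or young heart 3, and 3 without old heart 2 or young heart 2. Of all calls 51.7% were higher, against 32.7% with scaling by library size alone. The median log2 fold change (old over young) was -0.11 for the 33 genes and -0.01 for all genes tested; for the 33 genes it was -0.03 without old heart 3 and -0.19 with scaling by library size alone.

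The libraries of a group were not uniform for these genes. Old heart 3 had the lowest level of the 6 libraries for 18 of the 33 genes and for 13 of the 15 chaperones and folding enzymes. Young heart 1 had the highest level for 14 of the 33 genes and for 10 of the 15. The median level of the 33 genes, relative to the mean of the young hearts, was -0.06, -0.01 and -0.21 on the log2 scale in old hearts 1 to 3. Old heart 3 also had the highest immediate early genes (transcripts induced within minutes of a stimulus), with a list median of 2.73 against 1.66 and 1.60 in old hearts 1 and 2 on that scale. Library totals were 11295280 to 12514005 counts, so 1 count was worth 0.077 to 0.089 CPM (counts scaled to library size, here after TMM scaling). All 8 cardiomyocyte markers were detected, with 2 called higher (Actc1 and Tnni3), 0 lower and a median log2 fold change of 0.13. Their summed level was 66322 to 72180 CPM in old hearts and 53833 to 57034 CPM in young hearts. The 8 endothelial markers summed to 1480, 1451 and 1914 CPM in old hearts 1 to 3. In young hearts the sum was 1792 to 2045 CPM, and 2 of 8 were lower, none higher. The 8 fibroblast markers summed to 1633, 1592 and 1977 CPM in old hearts 1 to 3. In young hearts the sum was 1657 to 1781 CPM, and 2 of 8 were higher and 2 lower. The 8 macrophage markers summed to 887 to 1106 CPM in old hearts and 814 to 901 CPM in young hearts. Of these 8, 3 were higher and none lower. The 6 red cell markers had a median log2 fold change of -1.09, with Hba-a2 called lower, and sums of 3193, 6802 and 4355 CPM in old hearts 1 to 3 and 2162, 16078 and 8682 CPM in young hearts 1 to 3, highest in young heart 2. None of these markers was at 0 in every library, and their part in the results was not tested.

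Sequences upstream of these genes are shown first because many of the chaperones share a regulatory element that was not found in this window for the ATF4-branch genes. The ER stress element, CCAAT, 9 bases, CCACG, is where ATF6 binds together with NF-Y. It was searched on both strands in RefSeq promoters of the GRCm38.p6 assembly, 250 bases before to 50 after the transcript start, which held 28 of the 33 genes, all but Hyou1, Manf, Atf6, Ppp1r15b and Derl1. The element was found for 8 of the 28 genes, 7 of them chaperones or folding enzymes, and for 37 of all 27025 genes with a promoter, or 0.137%. Elements are in capitals with 15 bases on each side, 5′ to 3′ on the strand of the gene. For Calr, Creld2 and the second Hsp90b1 site the element lies on the opposite strand, so the capitals are its reverse complement.
Hspa5, chr2:34772010-34772058, plus strand: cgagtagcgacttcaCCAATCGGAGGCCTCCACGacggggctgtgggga
Hsp90b1, chr10:86705623-86705671, minus strand: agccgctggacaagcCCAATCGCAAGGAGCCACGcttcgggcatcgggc
Hsp90b1, chr10:86705518-86705566, minus strand: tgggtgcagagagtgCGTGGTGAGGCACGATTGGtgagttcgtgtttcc
Calr, chr8:84847060-84847108, minus strand: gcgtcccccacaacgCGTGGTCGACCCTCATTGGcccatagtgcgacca
Canx, chr11:50325785-50325833, minus strand: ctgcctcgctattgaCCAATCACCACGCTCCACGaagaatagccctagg
Pdia6, chr12:17266476-17266524, plus strand: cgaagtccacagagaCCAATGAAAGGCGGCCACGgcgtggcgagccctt
Dnajc3, chr14:118937812-118937860, plus strand: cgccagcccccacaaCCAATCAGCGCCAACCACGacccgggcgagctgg
Creld2, chr15:88819505-88819553, plus strand: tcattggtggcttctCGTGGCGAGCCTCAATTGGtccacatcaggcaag
Syvn1, chr19:6046517-6046565, plus strand: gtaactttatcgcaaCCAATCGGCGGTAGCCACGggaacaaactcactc

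The Hspa5 element lies 65 to 47 bases before the start. The other starts of the element, read along the gene, lie between 212 bases (Hsp90b1) and 44 bases (Syvn1) before it. A shorter variant, ER stress element II (ATTGG, 1 base, CCACG), was found for Herpud1, 52 to 42 bases before the start, and Dnajb11, 7 to 17 bases after it, and for 12 genes in all (0.0444%). Both elements end in CCACG. The unfolded protein response element TGACGTGG was found in none of the 28 genes (0.714% of all genes), nor was the C/EBP-ATF element TGATGCAAT bound by ATF4 (0.222%) or the heat shock element core GAANNTTC (9.04%). The cyclic AMP element TGACGTCA, whose first 6 letters are the same, was found only in Ppp1r15a among the 28 genes and in 2.03% of all genes. The Herpud1 and Ppp1r15a sites are printed the same way.
Herpud1, chr8:94386362-94386402, plus strand: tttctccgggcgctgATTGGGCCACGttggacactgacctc
Ppp1r15a, chr7:45526258-45526295, minus strand: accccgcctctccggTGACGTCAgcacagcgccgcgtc

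Of the 16 tested genes of the genome that hold the ER stress element, 1 (6.25%) was higher in old hearts, beside 11.4% of all genes. The other 15 were not called and the median log2 fold change was -0.09. The 8 that belong to the ER set ranged from -0.18 to -0.05. The gene called, Hnrnpa3 (0.39; named after its value was seen), encodes an RNA-binding protein outside the set. These matches describe letters in a window and say nothing on binding.

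Of the 6 genes of the PERK-ATF4 branch 4 were higher by edgeR, 2 of them (Atf4 and Ddit3) also by DESeq2. Atf4 had 209, 182 and 209 CPM in old hearts 1 to 3, against 93.6, 123 and 109.6 CPM in young hearts 1 to 3. The lowest old heart was above the highest young heart. The log2 fold change was 0.88 ± 0.11 (SE), with an edgeR adjusted p of 0.000193. Means were 199.9 ± 15.5 CPM in old hearts and 109 ± 14.6 CPM in young hearts (SD, n = 3 each). In bulk heart RNA, fewer cells of a type and less RNA per cell cannot be told apart, so these are levels of the tissue. Per length, Atf4 averaged 134 ± 12.4 FPKM in old hearts and 77.1 ± 9.10 FPKM in young hearts, and it took up 9.82 ± 1.14% of the summed FPKM of the 33 genes in old hearts and 5.26 ± 0.75% in young hearts. Left out in turn, the libraries gave log2 fold changes of 0.78 to 0.98, all called.

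Ddit3 encodes CHOP, a transcription factor downstream of ATF4 that is linked to cell death in prolonged stress. It had 29.0, 22.9 and 21.1 CPM in old hearts 1 to 3, against 15.5, 14.2 and 15.3 CPM in young hearts 1 to 3. The groups did not overlap and the log2 fold change was 0.70 ± 0.12 (edgeR adjusted p = 0.00238). Without old heart 1, the heart with the highest Ddit3, the gene was still called. Ddit3 shares 68 exon bases with Mars on the opposite strand in the GENCODE annotation, and the strand setting of the counting is not given.

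Ppp1r15a and Ppp1r15b encode the GADD34 and CReP subunits that direct protein phosphatase 1 to eIF2 alpha and so undo its phosphorylation. GADD34 is the inducible form and CReP the constitutive form. Ppp1r15a had 64.3, 79.0 and 111 CPM in old hearts 1 to 3, against 36.0, 59.6 and 50.3 CPM in young hearts 1 to 3. Old heart 3 stood highest and old heart 1 lay close above young heart 2. The log2 fold change was 0.80 ± 0.20 (edgeR adjusted p = 0.0137); it was 0.57 without old heart 3, still called, and 0.62 and 0.83 without young heart 1 and without young heart 3, where the adjusted p was 0.0532 and 0.0572. DESeq2 gave an adjusted p of 0.0515. Ppp1r15b had 49.5, 43.5 and 47.1 CPM in the old hearts and 35.0, 40.1 and 40.6 CPM in the young, a smaller difference of 0.28 ± 0.09 (edgeR adjusted p = 0.0456). This call was lost in 13 of 17 alternatives, among them each left-out library other than old heart 2, with adjusted p up to 0.215. Ppp1r15a made up 80.6 ± 4.66% of the FPKM of the pair in old hearts and 74.7 ± 3.47% in young hearts, and these shares overlapped.

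Eif2ak3 and Trib3 were not called. Eif2ak3, the PERK kinase itself, had 11.9, 11.6 and 14.0 CPM in old hearts 1 to 3, against 18.2, 12.8 and 16.2 CPM in young hearts 1 to 3. The log2 fold change was -0.34 ± 0.14 and the edgeR adjusted p 0.109, and it was lower without young heart 2 (-0.46, adjusted p = 0.0386). Trib3, a pseudokinase induced by ATF4 and CHOP, had 4.34, 4.84 and 3.99 CPM in the old hearts and 6.56, 5.62 and 4.18 CPM in the young. Its groups overlapped, with a log2 fold change of -0.31 ± 0.20 and a 95% interval of -0.75 to 0.13. Trib3 and Eif2ak3 were also the lowest of the branch per length, Trib3 at 2.08 ± 0.167 FPKM in old hearts and 2.73 ± 0.614 FPKM in young hearts.

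**Figure D1:**
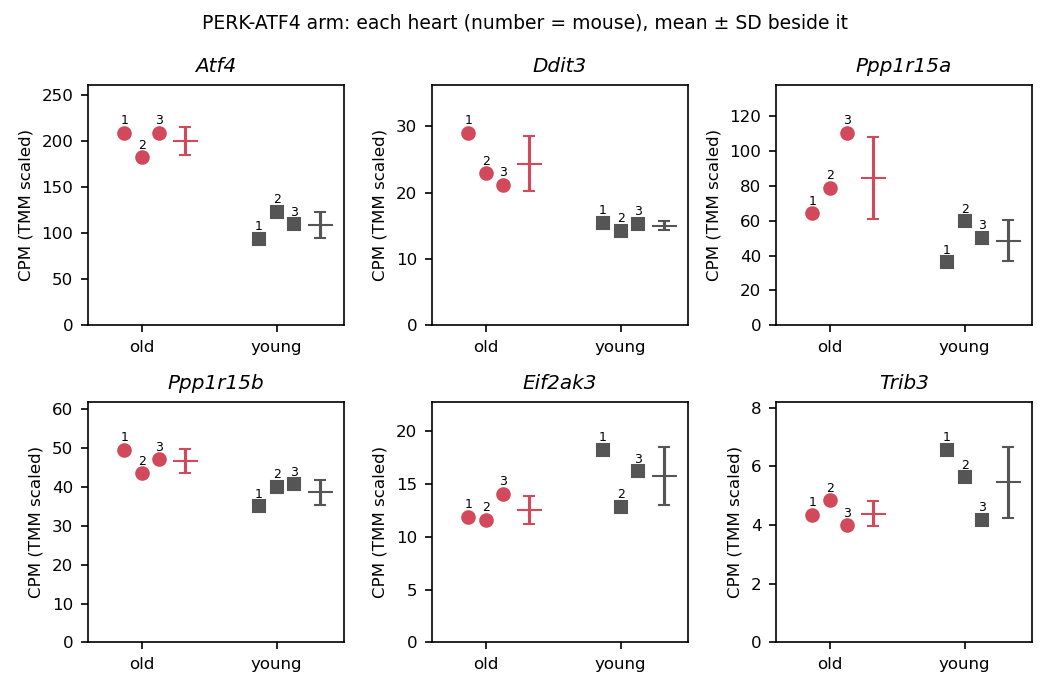
TMM-scaled CPM (vertical axes, each from 0) of the 6 PERK-ATF4 branch genes in the 3 old (left) and 3 young (right) hearts; points are hearts, numbered by replicate, with the group mean ± SD beside them. Atf4, Ddit3, Ppp1r15a and Ppp1r15b have all old hearts above all young hearts, while Eif2ak3 and Trib3 overlap.

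The immediate early genes were also higher in old hearts. Of 26 such genes tested, 24 (92.3%) were higher in old hearts and 0 lower by edgeR. Over all genes 11.4% were higher and 10.6% lower. All 26 were higher at an unadjusted p under 0.05, and 23 by DESeq2, with a median log2 fold change of 2.36. Their summed level was 2732, 2840 and 6297 CPM in old hearts 1 to 3 and 767, 1201 and 1243 CPM in young hearts 1 to 3. The median level of the PERK-ATF4 branch was 0.39, 0.38 and 0.39 (log2, relative to young) in old hearts 1 to 3. Single genes of the branch differed more between these hearts. Ddit3 was at 0.931, 0.595 and 0.482, and Ppp1r15a at 0.429, 0.724 and 1.207, on the same scale. Ppp1r15a was the only gene of the branch whose highest level of all 6 hearts was in old heart 3. The part of the immediate early change in the ATF4-branch values was not tested.

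Genes that ATF4 is known to activate, or that answer to amino acid shortage, changed in both directions. Of 26 tested, 6 (23.1%) were higher, 3 (11.5%) lower and 17 not called, with a median of 0.04. Over all genes 11.4% were higher and 10.6% lower. Cebpb, a transcription factor of the C/EBP family, averaged 97.3 ± 7.29 CPM in old hearts and 28.8 ± 5.87 CPM in young hearts (log2 fold change 1.76 ± 0.13). Atf3, a repressor that is also an immediate early gene, averaged 214 ± 25.8 CPM in old hearts and 13.3 ± 7.60 CPM in young hearts (4.02 ± 0.33). Both belong to early response programmes besides ATF4. Slc3a2, the heavy chain of amino acid transporters, averaged 68.3 ± 3.29 CPM in old hearts and 47.7 ± 1.22 CPM in young hearts (0.52 ± 0.08), while Vldlr, a lipoprotein receptor, was lower at 299 ± 3.73 CPM in old hearts and 491 ± 25.1 CPM in young hearts (-0.72 ± 0.08). The edgeR adjusted p of these 4 genes was at most 0.000889.

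The remaining called genes, with others chosen after their values were seen, show the same mixture. The stress factors Atf5 (0.45 ± 0.09), Cebpg (0.33 ± 0.10) and Nupr1 (0.79 ± 0.15) were higher. Gdf15, a stress hormone raised by CHOP and ATF4 (-0.78 ± 0.18), and Pck2, a mitochondrial enzyme of gluconeogenesis (-0.59 ± 0.13), were lower. Asns, asparagine synthetase and a classic ATF4 target, had 5.67, 3.37 and 5.72 CPM in the old hearts and 3.67, 3.07 and 2.94 CPM in the young, and was not called (edgeR adjusted p = 0.0842). Chac1, which breaks down glutathione, had 2.57, 3.20 and 2.77 CPM in the old hearts and 1.64, 2.37 and 1.08 CPM in the young (adjusted p = 0.0829, log2 fold change 0.76 ± 0.29).

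Among the other eIF2 kinases and eIF2 factors, 1 of 17 (5.88%) was higher and 2 (11.8%) were lower, beside 11.4% and 10.6% over all genes. Impact, an inhibitor of GCN2 activation, was higher (0.41 ± 0.09), and Gcn1, the activator of GCN2, was lower (-0.42 ± 0.09; 57.2, 58.4 and 56.2 CPM in the old hearts and 81.1, 66.7 and 81.4 CPM in the young). Eif2a, an initiation factor distinct from eIF2 alpha, was lower (-0.39 ± 0.09). Without old heart 3, 2 were higher. The edgeR adjusted p-values were 0.00741, 0.00845 and 0.0117. Genes linked to death under ER stress had 2 of 12 (16.7%) higher and 1 (8.33%) lower. The death receptor Tnfrsf10b, a CHOP target, averaged 12.6 ± 0.933 CPM in old hearts and 4.14 ± 0.244 CPM in young hearts (1.60 ± 0.14, adjusted p = 2.08e-05). Cebpa, a partner of CHOP, was higher (0.54 ± 0.11), and Bcl2l11, the death gene Bim that CHOP can raise, was lower (-0.68 ± 0.16); without young heart 3 Bcl2l11 was not called.

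None of the 9 ER chaperones of the Hsp70 and Hsp90 families and their cofactors passed the test in either direction, and all 9 estimates were below 0 (6 without old heart 3). Hspa5 had 482, 515 and 424 CPM in old hearts 1 to 3, against 532, 509.8 and 496 CPM in young hearts 1 to 3. The log2 fold change was -0.11 ± 0.09 with a 95% interval of -0.31 to 0.08 (edgeR adjusted p = 0.396), which corresponds to between 19.4% lower and 6.02% higher. Old heart 3 was lowest and the groups overlapped; without it the fold change was -0.03. Hspa5 was also the most abundant of the 33 genes per length, with 182 ± 14.9 FPKM in old hearts and 208 ± 9.56 FPKM in young hearts, and made up 13.2 ± 0.66% of the set's summed FPKM in old hearts and 14.2 ± 0.21% in young hearts. Hsp90b1, the Hsp90 of the ER (GRP94), had 337, 323 and 302 CPM in the old hearts and 366, 337 and 311 CPM in the young (-0.08 ± 0.09).

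The other 7 members of this group ranged from -0.28 (Sdf2l1) to -0.02 (Dnajb11) and none was called. Hyou1, the large Hsp70 relative that exchanges nucleotide on BiP, averaged 61.8 ± 9.16 CPM in old hearts and 70.7 ± 4.43 CPM in young hearts (-0.19 ± 0.11). The J-domain cochaperones Dnajb9 (-0.09 ± 0.09), Dnajb11 (-0.02 ± 0.08) and Dnajc3 (-0.07 ± 0.10) were also not called. Sdf2l1, a BiP cofactor in a complex with Dnajb11, had 13.6, 14.6 and 10.1 CPM in the old hearts and 18.1, 16.7 and 11.8 CPM in the young. Manf, a secreted BiP-binding factor that protects stressed cardiomyocytes, had 73.5, 80.9 and 57.3 CPM in the old hearts and 80.0, 95.1 and 70.1 CPM in the young. Creld2, a secreted chaperone-like protein raised in ER stress, was at -0.08 ± 0.11. All 9 genes of the group had their lowest value in old heart 3.

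Of the 6 calnexin-cycle and disulfide isomerase genes, 5 had estimates below 0 and none passed the test. Calr, calreticulin, which holds new glycoproteins and buffers calcium, had 312, 321 and 302 CPM in the old hearts and 353, 322 and 328 CPM in the young. The groups did not overlap, but the log2 fold change was only -0.10 ± 0.08. P4hb, the main protein disulfide isomerase, had 299.96, 313 and 308 CPM in old hearts 1 to 3, against 402, 325 and 354 CPM in young hearts 1 to 3. It reached -0.23 ± 0.09 with an unadjusted p of 0.028 and an edgeR adjusted p of 0.0937. P4hb was called lower in 5 of 17 alternatives. These were the fit without young heart 2, upper-quartile factors, library size alone and filtered FPKM with a pseudocount of 1 or 0.1. Pdia6 (-0.15 ± 0.08) also had all old hearts below all young hearts, whereas Canx (-0.05 ± 0.08), Pdia4 (-0.17 ± 0.10) and Pdia3 (0.06 ± 0.08), the partner of calnexin and calreticulin, overlapped. Groups without overlap were found for 12 of the 33 genes, 5 with old above and 7 with old below; over all genes tested the share was 39.9%, 19.6% with old above and 20.3% with old below.

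For the 15 chaperones and folding enzymes together, edgeR called 0 as higher and 0 as lower, as did DESeq2 and limma-voom, and 1 (P4hb) had an unadjusted p under 0.05. Of the 15 estimates 14 were negative, the exception being Pdia3, which was negative with scaling by library size alone (-0.024). Without old heart 3, 11 were negative, and Dnajb11 (0.040), Dnajc3 (0.023) and Creld2 (0.030) were above 0. The upper ends of their 95% intervals reached at most 0.23 on the log2 scale (Pdia3), or 17.3% higher, so for each gene a rise of 1.5-fold lay outside its interval. The lower ends reached -0.66 (Sdf2l1). Summed over the 9 chaperones and cofactors, the level was 1158, 1195 and 1012 CPM in old hearts 1 to 3 and 1265, 1224 and 1138 CPM in young hearts 1 to 3. With single libraries left out, 1 gene of the 15 was called lower in 2 of 6 cases, Hyou1 without old heart 2 and P4hb without young heart 2.

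**Figure D2:**
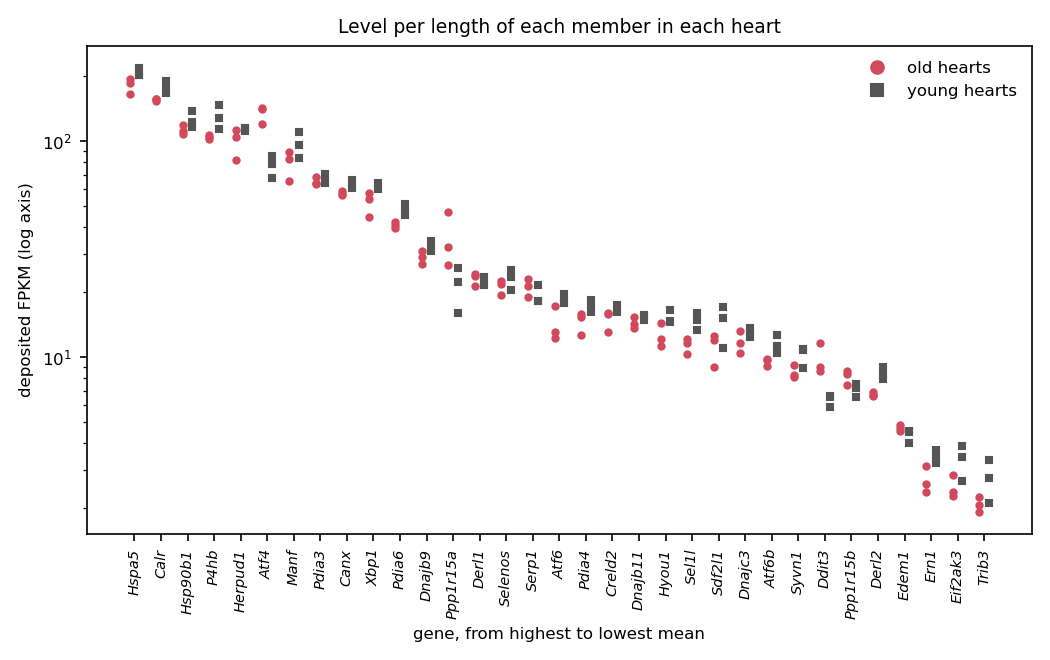
Deposited FPKM (log axis) of the 33 genes, from the highest to the lowest mean, in 3 old (circles) and 3 young (squares) hearts; each point is a heart. Hspa5 is highest, at means of 182 and 208 FPKM in old and young hearts, and Trib3, Eif2ak3 and Ern1 are lowest; Atf4, Ddit3 and Ppp1r15a are the genes whose old hearts sit most clearly above the young.

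The cytosolic heat shock genes gave another picture from the chaperones of the ER. Of 24 tested, 18 (75%) were higher and 0 lower by edgeR, beside 11.4% higher and 10.6% lower over all genes. At an unadjusted p under 0.05 and by DESeq2, 0 were lower also, and the median log2 fold change was 0.68. Hspa1b, an inducible cytosolic Hsp70, averaged 563 ± 47.2 CPM in old hearts and 5.10 ± 1.56 CPM in young hearts and Hspa1a, its near-identical neighbour, 479 ± 90.9 CPM in old hearts and 5.05 ± 1.51 CPM in young hearts. How reads were split between these 2 copies is uncertain. Dnajb1, a cytosolic J-domain cochaperone, averaged 235 ± 25.4 CPM in old hearts and 29.9 ± 4.55 CPM in young hearts. Hspa5 made up 10.7 ± 1.05% of the FPKM of Hspa5 and Hspa8 (the constitutive cytosolic Hsp70) in old hearts and 15.4 ± 0.84% in young hearts. Hspa8 was itself among the 18 genes called higher, and Hspa5 was not called. The difference between the lists was not tested.

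**Figure D3:**
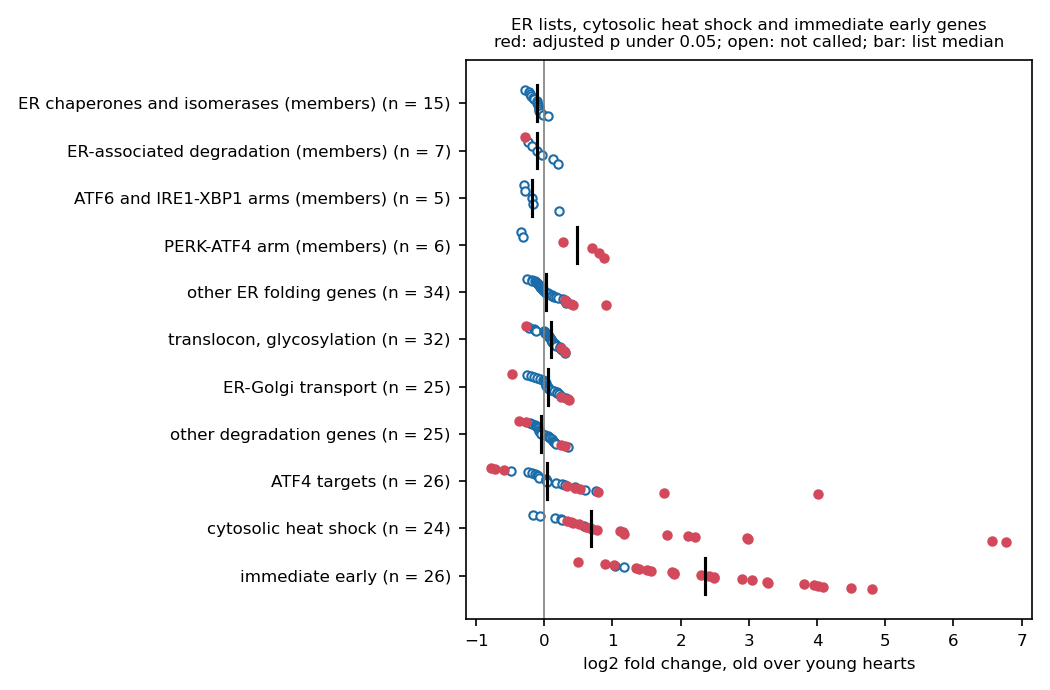
log2 fold changes, old over young (horizontal axis), for each gene of 11 lists; filled red points are called at an adjusted p under 0.05, open points are not, and the bar is the list median. The medians are -0.10 for the 15 ER chaperones and isomerases, 0.49 for the PERK-ATF4 branch, 0.68 for cytosolic heat shock genes and 2.36 for immediate early genes.

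The ATF6 and IRE1 branches had no called gene among their 5 members. Atf6, the sensor that is cut in the Golgi, had 107, 143 and 98.8 CPM in old hearts 1 to 3, against 136, 141 and 151 CPM in young hearts 1 to 3. Old heart 2 lay among the young hearts and the others below them, with -0.30 ± 0.12 (edgeR adjusted p = 0.107). Without old heart 2 it was lower (-0.47, adjusted p = 0.00507). Its relative Atf6b was at -0.18 ± 0.09, with all old hearts below all young hearts. Without a correction, Atf6 and Ern1 had p under 0.05, and DESeq2 called 0 of the 5.

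Ern1, the IRE1 alpha kinase and nuclease, had 17.0, 18.8 and 22.1 CPM in old hearts 1 to 3, against 23.0, 22.3 and 25.0 CPM in young hearts 1 to 3. Each old heart was below each young heart, with -0.28 ± 0.11 (edgeR adjusted p = 0.0914); the gene was lower without old heart 3 (-0.38, adjusted p = 0.0226). Xbp1, which gives the spliced transcription factor, had 131, 126 and 101 CPM in the old hearts and 133, 140.5 and 129 CPM in the young, lowest in old heart 3 (-0.17 ± 0.10). Plasma cells need Xbp1, and the sum of 10 B and plasma cell markers was 20.5, 21.3 and 43.0 CPM in old hearts 1 to 3 and 22.6, 26.6 and 24.1 CPM in young hearts 1 to 3; none of the 10 was at 0 in every library. Of these markers 7 were tested and 0 called, with 4 estimates above 0 and a range of -0.58 to 0.33. Jchain, 1 of the 10 markers, reached 12.3 CPM in old heart 3. The part of these cells was not tested. Serp1, which steadies membrane proteins at the translocon and is a target of Xbp1, was not called at 0.21 ± 0.10; it was higher without young heart 2 (0.31, adjusted p = 0.0498) and shares 72 exon bases with Eif2a on the opposite strand.

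The regulators around these branches were mixed. Of 9 genes for ATF6 processing and regulation 2 (22.2%) were higher and 1 (11.1%) lower, beside 11.4% and 10.6% over all genes. Wfs1, which limits ATF6, averaged 142 ± 14.7 CPM in old hearts and 108 ± 8.97 CPM in young hearts (0.40 ± 0.10), and Crebrf, a regulator of CREB3-type factors, 32.7 ± 3.55 CPM in old hearts and 52.6 ± 2.19 CPM in young hearts (-0.69 ± 0.09). Wdr83 was also higher (0.50 ± 0.09). Of 11 genes for IRE1 partners and mRNAs that IRE1 can cut, 0 were higher (also 0 at an unadjusted p under 0.05 and by DESeq2). The 1 lower gene (9.09%) was Pdgfrb, a growth factor receptor of pericytes and fibroblasts (-0.69 ± 0.11). Pdgfrb is also a marker of pericytes. Of 8 smooth muscle and pericyte markers 2 were lower, Pdgfrb and the pericyte marker Cspg4 (-0.66 ± 0.14), and 3 were higher, the contractile genes Acta2 (0.77 ± 0.20), Tagln (0.29 ± 0.09) and Cnn1 (0.64 ± 0.21). The sum of the 8 was 1268 to 1401 CPM in old hearts and 1203 to 1363 CPM in young hearts, and their part was not tested. Wfs1 was not called without young heart 1 or young heart 2, and 2 genes for ATF6 processing were lower without old heart 3.

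ER-associated degradation pulls misfolded proteins out of the ER to the proteasome, and 1 of its 7 members was called. Sel1l, the adaptor that holds the Hrd1 ligase complex together, had 67.2, 80.1 and 73.9 CPM in old hearts 1 to 3, against 89.5, 83.2 and 97.7 CPM in young hearts 1 to 3. The groups did not overlap and the log2 fold change was -0.29 ± 0.09 (edgeR adjusted p = 0.0449). The call was lost without old heart 1, old heart 3, young heart 1 or young heart 3, with adjusted p between 0.0644 and 0.185, and the fold change over the 6 left-out libraries lay between -0.35 and -0.22. Syvn1, the Hrd1 ligase itself, was at -0.18 ± 0.10 and was not called. Derl2, a derlin of the same channel, had 29.7, 29.6 and 28.3 CPM in the old hearts and 36.6, 34.8 and 32.5 CPM in the young (-0.24 ± 0.08, edgeR adjusted p = 0.057). It was called lower in 5 of 17 alternatives, with upper-quartile factors, library size alone and the FPKM fits. Derl2 shares 231 exon bases with Mis12 on the opposite strand.

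Herpud1, a short-lived organiser of the degradation complex that ATF6, XBP1 and ATF4 all raise, had 217, 240.4 and 169 CPM in old hearts 1 to 3, against 224, 225 and 226 CPM in young hearts 1 to 3. The young hearts were close to each other and the old hearts lay on both sides of them (-0.11 ± 0.11). Edem1, a lectin-like protein that passes misfolded glycoproteins on for degradation, had all old hearts above all young hearts, at 28.6 ± 1.16 CPM in old hearts and 25.0 ± 1.26 CPM in young hearts (0.19 ± 0.09, edgeR adjusted p = 0.129). Derl1 (0.13 ± 0.08) and Selenos (-0.03 ± 0.11), a selenoprotein partner of the derlins, were not called.

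**Figure D4:**
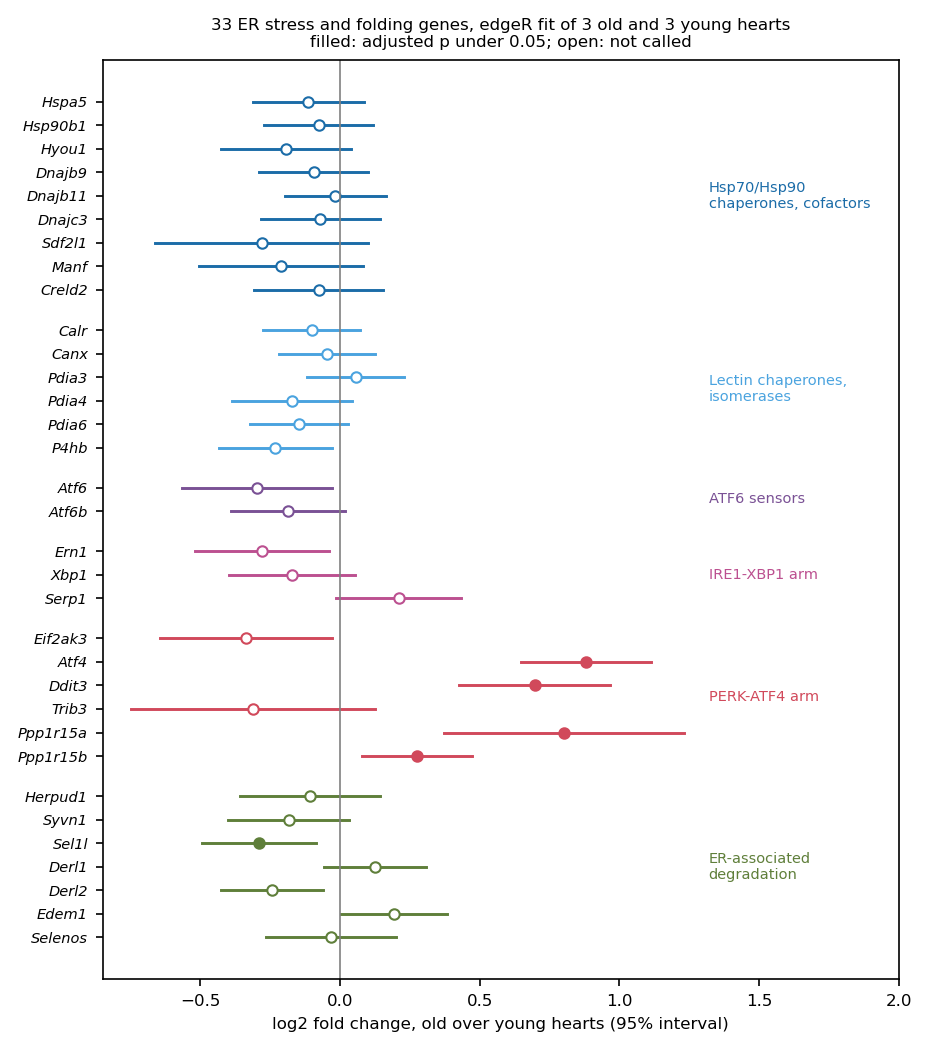
log2 fold change, old over young, with 95% intervals from the edgeR fit for the 33 genes, coloured by role; filled points were called at an adjusted p under 0.05. Atf4 (0.88), Ppp1r15a (0.80), Ddit3 (0.70) and Ppp1r15b (0.28) lie right of 0, Sel1l (-0.29) left, and the chaperones sit near or just below 0.

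**Figure D5:**
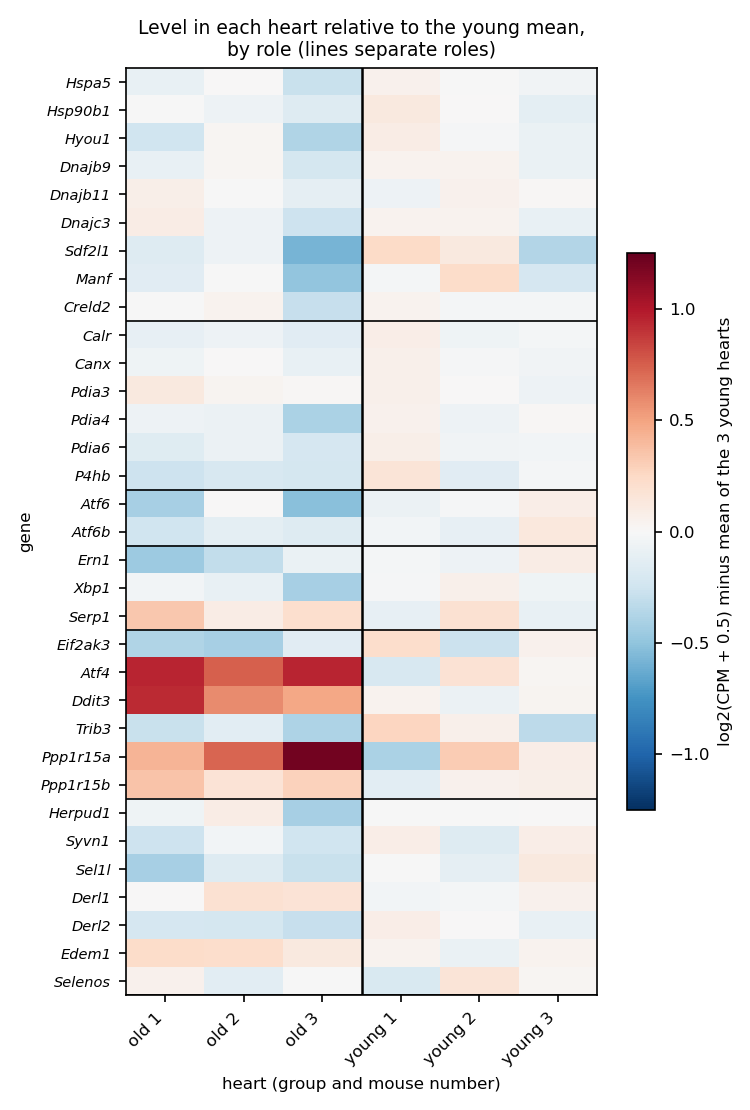
Level of each of the 33 genes in each heart (old hearts left, young right), as log2(CPM + 0.5) relative to the mean of the young hearts; red is higher, blue lower. Old heart 3 is the bluest column for the chaperones, with a median of -0.27 over the 9 chaperones and cofactors, while Atf4, Ddit3 and Ppp1r15a are red in all 3 old hearts.

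Genes of the wider ER machinery, outside the 33, were called at shares set here beside 11.4% higher and 10.6% lower over all genes. Of 34 other ER folding genes 5 (14.7%) were higher and 0 lower by edgeR (8 higher and 0 lower at an unadjusted p under 0.05; 4 and 0 by DESeq2), with a median of 0.02. Serpinh1, the collagen chaperone Hsp47, averaged 624 ± 59.4 CPM in old hearts and 333 ± 24.4 CPM in young hearts (0.91 ± 0.10, adjusted p = 7.45e-05); it is also a heat shock gene. Tmx1 (0.39 ± 0.09), Selenof (0.30 ± 0.08) and Fkbp7 (0.42 ± 0.12), enzymes or partners in folding, were higher by less. The count of higher genes fell to 1, 2, 3 and 2 without old heart 1, young heart 1, young heart 2 and young heart 3, and to 2 with library size alone or upper-quartile factors. Fkbp7 was not called in 10 of 17 alternatives, DESeq2 among them.

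Of 32 translocon, signal peptidase and glycosylation genes 2 were higher and 1 lower: Srprb, a signal recognition particle receptor subunit (0.31 ± 0.08), Rpn1, an oligosaccharyltransferase subunit (0.25 ± 0.08), and Srp68 (-0.26 ± 0.08). Higher genes numbered 1, 1, 0 and 0 without old heart 1, old heart 3, young heart 1 and young heart 3, and Srp68 was not called in any of the 6 fits with a heart left out. Rpn1 was called in 4 of 17 alternatives and Srp68 in 9. Of 25 ER-Golgi transport genes 3 were higher and 1 lower. Tmed9, a cargo receptor (0.35 ± 0.08), Sar1b, the GTPase of COPII coats (0.36 ± 0.08), and Sec13, a coat subunit (0.25 ± 0.08), were the higher ones and Creb3l1, an ER-anchored transcription factor (-0.48 ± 0.12), the lower one. Sec13 was called in only 4 of 17 alternatives, and not by DESeq2. Without young heart 1, 1 was higher, and 0 were lower without old heart 1 or young heart 1.

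Of 25 other degradation genes 2 were higher, the ubiquitin-conjugating enzymes Ube2g2 (0.30 ± 0.09) and Ube2j2 (0.24 ± 0.08), and 2 lower, the deglycosylase Ngly1 (-0.38 ± 0.09) and the ligase Marchf6 (-0.27 ± 0.08). The higher calls fell to 0 without old heart 1, old heart 2, young heart 1 or young heart 3, and the lower calls to 0 without old heart 1 or young heart 1 and to 1 without old heart 3 or young heart 3. Of 13 ER-phagy genes, which clear ER by autophagy, 3 (23.1%) were lower and 0 higher by edgeR (2 higher at an unadjusted p under 0.05, 0 by DESeq2). Without old heart 2 and without young heart 2, 1 and 2 were higher. Retreg1, an ER-phagy receptor, averaged 253 ± 20.3 CPM in old hearts and 334 ± 8.07 CPM in young hearts (-0.40 ± 0.09, edgeR adjusted p = 0.00674). Ufl1, the UFM1 ligase (-0.40 ± 0.09), and Atl3, an ER-shaping GTPase (-0.39 ± 0.09), were the others. The share called lower over all genes was 10.6%.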

How the data were processed

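Polyadenylated RNA from mouse hearts was sequenced, per the labels' protocols with a stranded library kit. The deposited gene counts are whole reads per gene, and the deposited FPKM values (scaled by the length of each gene and by depth) are also the authors'. HTSeq, StringTie, Cufflinks, DESeq, Bowtie2, HISAT2 and Trimmomatic are named with GRCm39, per the submitters' processing notes; their versions and the strand setting were not given in the sources used here. Counts were tested with edgeR 4.0.16 (R 4.3.3): filterByExpr, TMM, quasi-likelihood F test of 3 old against 3 young hearts with no covariate, Benjamini-Hochberg over 12893 genes, called under 0.05. Standard errors come from the fold change and F. The code was tested on simulated data. Replicates differed beyond sampling noise (chi-square per degree of freedom 7.9 to 16.7). Alternatives were DESeq2 1.42.0, limma 3.58.1 (voom, and log2 FPKM with a pseudocount of 1 or 0.1), other scalings and filters, a replicate block and each library left out; a gene length trend was added after seeing the data. FPKM was also used for levels per length and for shares of a gene within a set. All 33 genes are described; of each wider list up to 4 called genes with the smallest p are named. The members and lists were chosen with earlier results of these data known. Promoters come from RefSeq (GRCm38.p6), a build other than that of the files.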

Additional observations from a re-analysis of the deposited data

How the results depend on the processing

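Over 17 alternatives for each of the 33 genes, 509 of 561 comparisons kept direction and call, 22 lost a call, 19 gained one and 11 changed sign without a call on either side. Atf4 and Ddit3 were called in all 17. The number of members called higher (4 as reported) was 2 by DESeq2, 2 on unfiltered FPKM and 2 to 4 with a library left out. The number called lower (1) was 5 with library size alone (Atf6, Derl2, Ern1, P4hb and Sel1l), 3 with upper-quartile factors, 0 with the replicate block, 4 on FPKM with either pseudocount, 2 on unfiltered FPKM and 0 to 3 with a library left out. Whether the replicate numbers pair the hearts cannot be decided from 3 hearts a group. Same-number correlations of deviations were 0.0782, 0.0782 and 0.00675, under 0.1. Old hearts 1 and 2, but not 3, correlated best with their own number. With the replicate block 3 members were called higher. Over all genes, 1467 higher and 1368 lower became 2122 lower with library size alone, 907, 897 and 810 higher on FPKM (pseudocount 1, 0.1 and unfiltered), and 850 to 1597 higher and 682 to 1444 lower with a library left out. Of all calls 51.7% were higher, against 40.2% (upper-quartile factors), 32.7% (library size alone) and 35.1% (FPKM). Signs changed for Pdia3 (-0.024 with library size alone and on FPKM) and, with a library left out, for Selenos (-0.12 to 0.050; above 0 at 0.027 and 0.050 without old heart 2 and young heart 2), Dnajb11 (-0.055 to 0.040; above 0 without old heart 3 and young heart 2), Dnajc3 (-0.15 to 0.023), Creld2 (-0.13 to 0.030) and Herpud1 (-0.21 to 0.034), the last 3 above 0 without old heart 3. A gene length trend, removed after seeing the data, changed no member's sign but moved 11 of 33 values by over 1.5 times, among them Manf (-0.40), Creld2 (-0.21), Dnajb9 (-0.18), Selenos (-0.18) and Canx (-0.014). In the wider lists, library size alone gave 0 higher and 4 lower translocon genes, 0 higher and 4 lower other degradation genes, 3 lower ER-Golgi genes, 4 lower eIF2 genes and 3 lower ATF6 regulators; on FPKM the translocon list had 0 higher and 4 lower with either pseudocount. The cause was not tested.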
